A study of Mus musculus with 12 samples.

Results

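Immediate-early genes and MAP kinase phosphatases were followed in mouse bone marrow-derived macrophages (BMDMs, macrophages grown in culture from marrow cells). The 10 genes were Dusp1, Dusp2, Dusp6, Fos, Jun, Junb, Egr1, Nr4a1, Ier2 and Ier3. They were picked by symbol, through the Ensembl identifiers of the gene count table, and all 10 were found among its 54532 gene rows. The table came from bulk RNA-seq of 12 libraries in 4 groups of 3. These were Gpnmb R150X macrophages given oxidised low-density lipoprotein (OxLDL), WT macrophages given OxLDL, untreated R150X macrophages and untreated WT macrophages. R150X is an allele of Gpnmb, the gene of a transmembrane glycoprotein of macrophage lysosomes, and is known as the premature stop codon that DBA/2 mice carry. All 4 groups, WT included, are labelled with one mixed background, DBA/2 mice crossed and then backcrossed to C57BL/6. OxLDL loads macrophages with lipid and turns them into foam cells, and the study asked how Gpnmb acts on that step. The labels give no dose or duration of OxLDL, no age of the mice, and no statement that replicates came from separate animals, so p-values measure the spread between these libraries, which may be technical.

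Immediate-early genes are transcribed within minutes of a stimulus, without the need for protein synthesis, when MAP kinases activate transcription factors that are already present. Fos, Jun and Junb encode subunits of AP-1. Egr1 encodes a zinc finger transcription factor, Nr4a1 an orphan nuclear receptor that restrains inflammatory genes in macrophages, and Ier2 and Ier3 small regulatory proteins. The dual-specificity phosphatases switch the pathway off. Dusp1 removes phosphate from p38 and JNK in the nucleus and limits cytokine production in macrophages, Dusp2 is a nuclear phosphatase of haematopoietic cells, and Dusp6 acts on ERK in the cytoplasm.

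Library totals lay between 14838969 and 18222868 counts. The members had between 76 and 3449 counts per library, and the coefficient of variation within a group was between 1.12% and 15.7%, with a median of 4.97%. All 10 members passed the filter on low counts, which left 15338 genes to test. Replicate 1 of the untreated R150X group stood apart from replicates 2 and 3 of its group, with a chi-square per degree of freedom of 9.23 and 10.1, against 2.31 to 4.76 for all other pairs of replicates. Gpnmb was at 691 to 724 CPM (counts scaled to library size) in OxLDL-treated R150X and 12355 to 12615 CPM in OxLDL-treated WT macrophages, and at 363 to 411 CPM in untreated R150X and 5305 to 5374 CPM in untreated WT macrophages, so the libraries went with their genotype labels. The 8 macrophage markers, among them Adgre1, Csf1r and Cd68, summed to 19502.5 to 20882 CPM in OxLDL-treated R150X and 23149 to 24766 CPM in OxLDL-treated WT macrophages. Without treatment they summed to 21218 to 22149.5 CPM in R150X and 19453 to 19756 CPM in WT macrophages. Their sum was thus higher in R150X without treatment and lower in R150X under OxLDL. Markers of fibroblasts and stroma, 10 genes such as Col1a1 and Dcn, were present in every group. They summed to 5533 to 5824 CPM in OxLDL-treated R150X and 6296 to 6928 CPM in OxLDL-treated WT macrophages, and to 9462 to 9511 CPM in untreated R150X and 14388 to 14542 CPM in untreated WT macrophages. The 10 neutrophil markers summed to 37.5 to 38.6 CPM, 118 to 137 CPM, 190 to 206 CPM and 418 to 443 CPM in the same order of groups. The 5 endothelial markers summed to 125 to 127 CPM, 136 to 143 CPM, 213 to 223 CPM and 281 to 289 CPM in that order. Of 8 adipocyte markers 4 passed the filter and Lep was at 0 in every library. The sum of the 8 was higher in R150X, at 194 to 221 CPM in OxLDL-treated R150X and 157 to 175 CPM in OxLDL-treated WT macrophages. Without treatment it was 106 to 116 CPM in R150X and 67.7 to 76.6 CPM in WT macrophages. Gene by gene the difference was larger: the 4 that passed had median log2 fold changes, R150X over WT, of 3.45 under OxLDL and 2.25 without. These sums, that of the macrophage markers included, thus moved with genotype and with OxLDL, and their part in the results that follow was not tested. The 5 sex-linked genes Xist, Ddx3y, Eif2s3y, Kdm5d and Uty differed between the genotypes in both conditions, 1 higher and 4 lower in R150X. Xist marks female cells and the other 4 mark male cells, so their sum measures neither sex. This sum was 455 to 486 CPM in OxLDL-treated R150X and 208 to 233 CPM in OxLDL-treated WT macrophages. Without treatment it was 360 to 472 CPM in R150X and 195 to 207 CPM in WT macrophages. Sex markers thus differed with genotype, and the part of mouse sex in the genotype results was not tested. In such bulk libraries fewer cells of a type and less RNA per cell cannot be told apart.

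The promoter windows of the members that carry the main differences are shown first, because cAMP response elements (CRE, sites for CREB and ATF factors) are known control elements of immediate-early promoters. The windows run from 250 bases before to 50 bases after the annotated start, in RefSeq on GRCm38.p6, and 8 of the 10 members were in the table, without Egr1 and Ier2. Dusp1 (chr17:26508423-26508722, minus strand) had the largest genotype difference among the members. Nr4a1 (chr15:101266596-101266895, plus strand) and Fos (chr12:85473640-85473939, plus strand) responded to OxLDL differently in the 2 genotypes. Dusp2 (chr2:127335909-127336208, plus strand) and Ier3 (chr17:35821463-35821762, plus strand) fell most with OxLDL. Capitals mark the CRE half-site TGACG on either strand, where it reads CGTCA on the other, and the TATA box TATAAA.
Dusp1: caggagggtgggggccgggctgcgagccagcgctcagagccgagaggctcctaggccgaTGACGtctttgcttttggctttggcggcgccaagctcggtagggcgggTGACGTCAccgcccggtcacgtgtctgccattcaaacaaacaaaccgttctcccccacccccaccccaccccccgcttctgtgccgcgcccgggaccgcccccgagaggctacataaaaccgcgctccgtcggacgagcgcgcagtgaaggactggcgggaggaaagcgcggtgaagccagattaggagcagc
Nr4a1: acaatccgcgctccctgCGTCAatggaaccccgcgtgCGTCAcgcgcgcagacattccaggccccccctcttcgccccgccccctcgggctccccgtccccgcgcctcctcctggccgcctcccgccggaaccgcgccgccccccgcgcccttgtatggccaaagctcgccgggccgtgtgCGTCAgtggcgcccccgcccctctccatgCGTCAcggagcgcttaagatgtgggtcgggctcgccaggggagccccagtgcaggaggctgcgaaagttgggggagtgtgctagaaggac
Fos: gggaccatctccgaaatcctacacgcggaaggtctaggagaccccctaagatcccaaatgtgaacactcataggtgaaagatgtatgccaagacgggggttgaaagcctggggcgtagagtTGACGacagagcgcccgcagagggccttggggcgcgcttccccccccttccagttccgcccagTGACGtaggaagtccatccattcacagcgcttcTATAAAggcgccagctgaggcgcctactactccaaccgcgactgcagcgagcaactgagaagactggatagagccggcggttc
Dusp2: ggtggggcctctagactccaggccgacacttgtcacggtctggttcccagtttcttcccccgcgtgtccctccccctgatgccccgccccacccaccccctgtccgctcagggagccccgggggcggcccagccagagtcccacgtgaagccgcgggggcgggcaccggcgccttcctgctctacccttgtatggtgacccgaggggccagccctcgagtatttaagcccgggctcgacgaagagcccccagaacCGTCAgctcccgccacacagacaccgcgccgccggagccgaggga
Ier3: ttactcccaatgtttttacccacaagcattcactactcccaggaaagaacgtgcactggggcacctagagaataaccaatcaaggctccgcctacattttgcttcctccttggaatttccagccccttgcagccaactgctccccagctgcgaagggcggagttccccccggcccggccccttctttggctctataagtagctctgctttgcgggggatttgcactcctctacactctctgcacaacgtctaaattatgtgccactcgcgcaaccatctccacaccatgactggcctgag
On both strands, the CRE half-site was found in 5 of the 8 windows, Dusp1, Nr4a1, Fos, Junb and Dusp2, and in 20.8% of all 32851 windows of the same length. Nr4a1 held 4 copies, between bases -233 and -36 from the start. Dusp1 held 3, of which 2 overlap to form the full CRE TGACGTCA at bases -143 to -136. That full element was in 1 of the 8 windows and in 1.79% of all windows. The GC box GGGCGG was found in 6 of the 8 windows (35.7% of all windows) and TATAAA in 2 of the 8, Fos and Junb (13.6% of all windows). TATAAA lay at bases -33 to -28 in Fos, but in Junb at bases 1 to 6, on the annotated start itself. No window of the 8 held the AP-1 site TGANTCA (7.81% of all windows) or the CArG box of serum response factor (1.63% of all windows). These are matches of letters within 300 bases and not measured binding sites. Sequence outside these windows, and the promoters of Egr1 and Ier2, were not searched, so no match here does not mean no site.

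Per kilobase of exon, where levels of different genes can be compared, Junb had the highest level and Nr4a1 the lowest. The means over the 12 libraries were 74.6 CPM per kilobase for Junb, 49.2 for Fos, 40.3 for Jun, 32.7 for Dusp1, 29.8 for Dusp6, 21.9 for Ier2, 19.9 for Ier3, 8.82 for Egr1, 5.96 for Dusp2 and 2.91 for Nr4a1. With the longest transcript as gene length Dusp1 stood at 46.8 CPM per kilobase, above Jun at 40.3, and the rest of the order was the same. The libraries with the highest and lowest Dusp1 level stood at 51.8 and 14.6 CPM per kilobase, a wider range than that of Junb, 95.97 and 63.5.

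Ordered by mean CPM, the 4 groups gave each member its own ladder. The groups of Dusp1 and of Fos were all clear of their neighbours, with untreated R150X highest for Dusp1 and OxLDL-treated R150X highest for Fos. Egr1 and Ier2 put both R150X groups on top, overlapping each other and clear of WT. Dusp2 and Ier3 put both OxLDL groups at the bottom, overlapping each other, below untreated R150X and then untreated WT. Dusp6 was the reverse, with the untreated groups overlapping at the bottom and OxLDL-treated WT on top. For Jun the OxLDL-treated WT group lay above the other 3, and for Junb the untreated R150X group did, while the remaining neighbours overlapped. Nr4a1 had OxLDL-treated R150X at the top, untreated R150X at the bottom, and the overlapping WT groups between them.

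In untreated macrophages, 5 of the 10 members were higher in R150X than in WT, Dusp1, Fos, Ier2, Egr1 and Junb, and 2 were lower, Dusp2 and Nr4a1. Of all genes tested 33.0% were called in this comparison, 18.1% higher and 14.8% lower. The libraries of the 2 genotypes did not overlap for 8 members, as for 46.1% of all genes. The median log2 fold change (R150X over WT) was 0.16 over the members and 0.01 over all genes tested. The members thus moved in both directions, with more of them up than down. Adjusted p-values, here and in what follows, come from the quasi-likelihood test of edgeR and were adjusted after Benjamini and Hochberg over all genes tested.

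Dusp1, the p38 and JNK phosphatase, had 172, 162 and 164 CPM in untreated R150X macrophages, against 71.9, 62.2 and 74.8 CPM in untreated WT macrophages. Every R150X library was thus far above every WT library. The level was 2.38 times as high, a log2 fold change of 1.25 ± 0.06 (SE, n = 3 each, edgeR adjusted p = 4.39e-12). It ranked 31 from the top among the 10677 genes that averaged at least 5 CPM.

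Fos, the AP-1 subunit, was the next in size. It had 125, 120.4 and 119.9 CPM in untreated R150X macrophages, against 82.0, 77.0 and 78.6 CPM in untreated WT macrophages, with no overlap. The log2 fold change was 0.62 ± 0.05 (SE, edgeR adjusted p = 3.59e-09). Ier2, a short intronless gene, rose with it, at 41.5, 35.9 and 37.5 CPM in untreated R150X and 24.8, 27.7 and 28.6 CPM in untreated WT macrophages. Its log2 fold change was 0.50 ± 0.07 (SE, edgeR adjusted p = 2.51e-05). Egr1 had 43.4, 49.4 and 48.8 CPM in untreated R150X macrophages, against 37.1, 38.2 and 34.3 CPM in untreated WT macrophages. All 3 R150X libraries again lay above the WT libraries, by 0.37 ± 0.07 on the log2 scale (SE, edgeR adjusted p = 0.000181).

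Junb, whose levels were 182 to 221 CPM in untreated R150X and 161 to 181 CPM in untreated WT macrophages, rose by 0.22 ± 0.07 on the log2 scale (SE, edgeR adjusted p = 0.0194). Its highest library was replicate 1 of untreated R150X, the one that stood apart. Without it the difference was 0.12 and was not called (edgeR adjusted p = 0.133), nor was it called without WT replicate 1 (adjusted p = 0.0910) or WT replicate 2 (adjusted p = 0.0718), or when libraries were scaled by size alone (adjusted p = 0.112). Dusp2, the haematopoietic nuclear phosphatase, had 18.3, 16.1 and 13.3 CPM in untreated R150X macrophages, against 19.8, 21.3 and 20.9 CPM in untreated WT macrophages. It fell by 0.39 on the log2 scale (SE 0.11, edgeR adjusted p = 0.0118), and leaving out R150X replicate 3 ended this call (adjusted p = 0.0811). Nr4a1 was also lower, at 7.53, 9.30 and 7.36 CPM in untreated R150X and 10.99, 10.3 and 10.04 CPM in untreated WT macrophages. Its log2 fold change was -0.37 ± 0.11 (SE, edgeR adjusted p = 0.0167), with adjusted p = 0.0516, 0.0768 and 0.0639 without R150X replicate 1, R150X replicate 3 and WT replicate 1.

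Jun, Dusp6 and Ier3 were not called between the untreated genotypes. Dusp6 had 75.2 to 76.9 CPM in untreated R150X and 76.1 to 79.6 CPM in untreated WT macrophages, and the 95% interval of its log2 fold change was -0.13 to 0.08. The interval was -0.03 to 0.22 for Jun and -0.25 to 0.08 for Ier3. The bounds leave room for small differences in these 3 genes, the largest bound being 0.25 on the log2 scale in size. They cover the spread between these libraries and set no limit on a difference between mice.

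**Figure D1:**
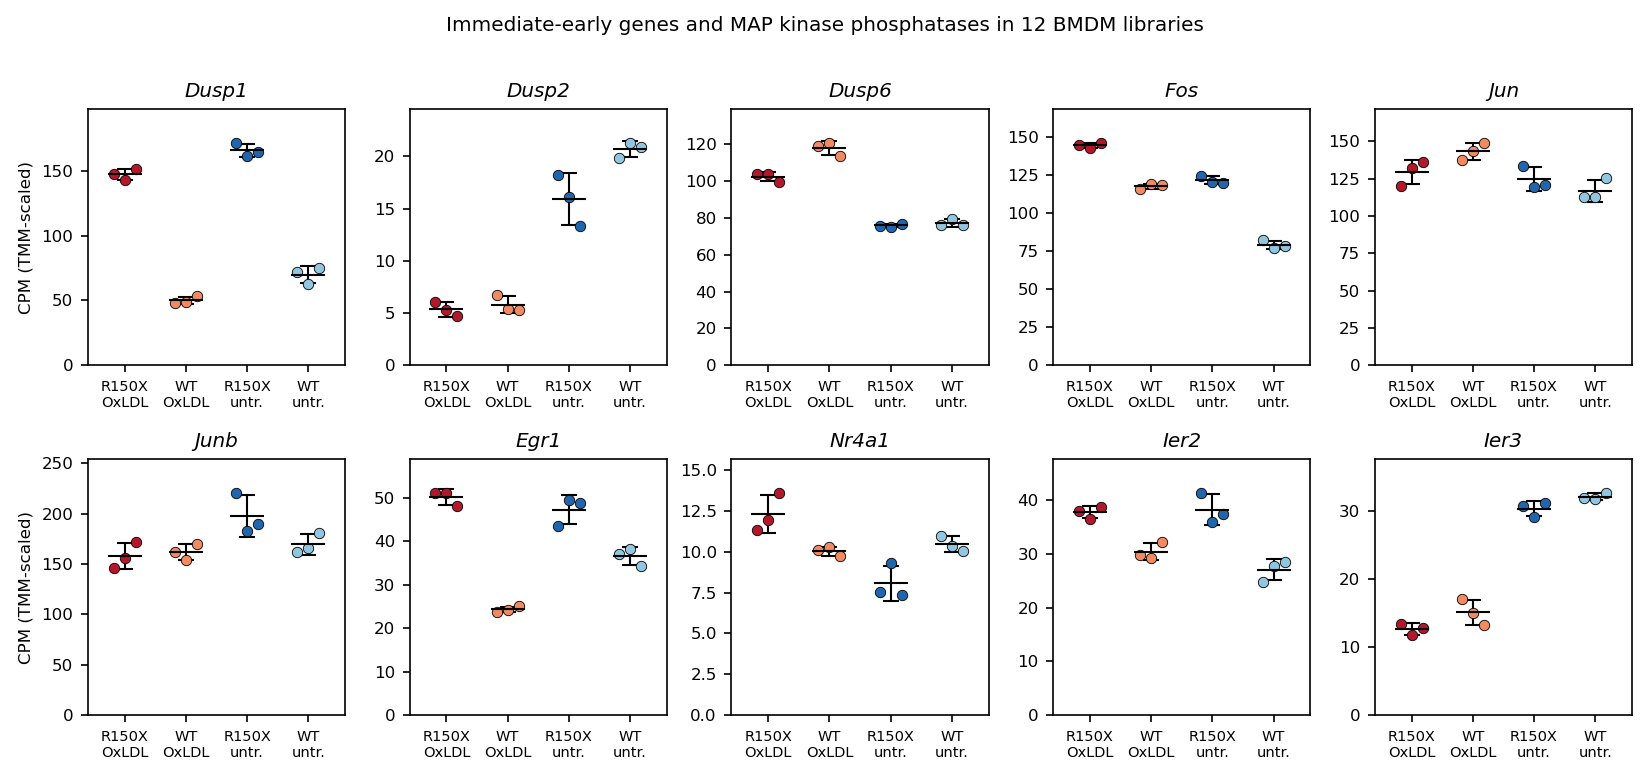
Level of each of the 10 genes in CPM (vertical axes, from 0) in the 12 libraries, by group. Points are libraries, horizontal bars the mean of 3 libraries and whiskers the SD. The R150X points of Dusp1 lie above the WT points in both conditions, and the OxLDL points of Dusp2 and Ier3 lie below the untreated points in both genotypes.

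In OxLDL-treated macrophages 4 members were higher in R150X, Dusp1, Egr1, Ier2 and Fos, and 1 was lower, Dusp6, while 13.0% of all genes tested were called, 6.10% higher and 6.92% lower. The libraries did not overlap for 7 of the 10 members, as for 30.0% of all genes. The median log2 fold change was 0.13 over the members and 0.00 over all genes. The 4 members higher here were also higher without treatment. The 2 comparisons share no library, but the labels do not say whether treated and untreated cultures came from the same mice. The share of all genes higher in both comparisons is not given here.

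Dusp1 had 147, 143 and 151 CPM in OxLDL-treated R150X macrophages, against 48.2, 49.0 and 53.1 CPM in OxLDL-treated WT macrophages. The lowest R150X library stood far above the highest WT library. The level was 2.94 times as high, a log2 fold change of 1.55 ± 0.06 (SE, n = 3 each, edgeR adjusted p = 2.64e-13), which ranked 19 from the top among the 10677 genes.

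Egr1 came next, with 51.1, 51.1 and 48.0 CPM in OxLDL-treated R150X macrophages, against 23.7, 24.2 and 25.0 CPM in OxLDL-treated WT macrophages. The level was 2.06 times as high, with a log2 fold change of 1.04 ± 0.07 (SE, edgeR adjusted p = 6.66e-10), and ranked 49 from the top. The groups were thus clear of each other for this zinc finger factor as for Dusp1. Fos had 145, 143 and 146 CPM in OxLDL-treated R150X and 116, 119 and 118 CPM in OxLDL-treated WT macrophages, a log2 fold change of 0.30 ± 0.05 (SE, edgeR adjusted p = 0.000129). Ier2 had 38.0, 36.6 and 38.8 CPM in OxLDL-treated R150X and 29.8, 29.3 and 32.2 CPM in OxLDL-treated WT macrophages, a log2 fold change of 0.31 ± 0.07 (SE, edgeR adjusted p = 0.00615). Neither gene's groups overlapped.

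Dusp6, the ERK phosphatase, was the member that fell, with 99.5 to 104 CPM in OxLDL-treated R150X and 114 to 121 CPM in OxLDL-treated WT macrophages. Its log2 fold change was -0.20 ± 0.05 (SE, edgeR adjusted p = 0.00715). Jun, Junb, Dusp2, Ier3 and Nr4a1 were not called. Their 95% intervals were -0.27 to -0.02 for Jun, -0.18 to 0.11 for Junb, -0.44 to 0.20 for Dusp2, -0.46 to -0.06 for Ier3 and 0.06 to 0.53 for Nr4a1. The intervals of Jun, Ier3 and Nr4a1 left out 0, but their adjusted p-values were 0.134, 0.0822 and 0.0948. Without WT OxLDL replicate 3 the difference of Ier3 was called, at -0.34 (edgeR adjusted p = 0.0252).

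**Figure D2:**
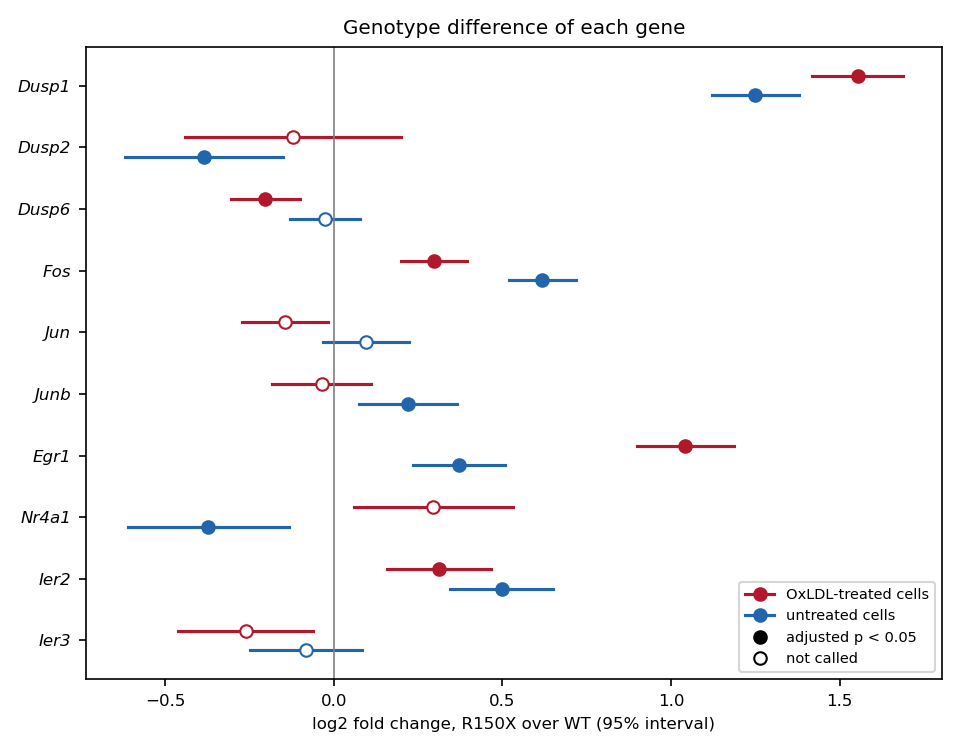
Genotype difference of each gene as log2 fold change, R150X over WT (horizontal axis), in OxLDL-treated (red, upper) and untreated (blue, lower) macrophages. Points are estimates, lines 95% intervals, and filled points mark an adjusted p under 0.05. Dusp1 lies at 1.55 and 1.25 and Egr1 at 1.04 and 0.37, and the 2 points of Nr4a1 lie on opposite sides of 0, at 0.30 (not called) and -0.37.

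OxLDL moved members in both directions in each genotype. In R150X macrophages 3 members rose, Nr4a1, Dusp6 and Fos, and 4 fell, Dusp2, Ier3, Junb and Dusp1, while 39.0% of all genes tested were called, 18.4% higher and 20.6% lower. In WT macrophages 3 rose, Dusp6, Fos and Jun, and 4 fell, Dusp2, Ier3, Egr1 and Dusp1, while 45.8% of all genes were called, 22.7% higher and 23.1% lower. OxLDL-treated and untreated libraries did not overlap for 7 members in R150X (46.4% of all genes) and 8 in WT (55.9% of all genes). The median log2 fold change (OxLDL over untreated) was 0.02 over the members and 0.00 over all genes in R150X, and -0.06 over the members and 0.01 over all genes in WT macrophages. In both genotypes 2 members rose, Dusp6 and Fos, and 3 fell, Dusp1, Dusp2 and Ier3. The share of all genes called in the same direction in both genotypes is not given here.

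Dusp2 and Ier3 had the largest responses among the members in both genotypes. Dusp2 had 6.08, 5.26 and 4.69 CPM in OxLDL-treated R150X macrophages, against 18.3, 16.1 and 13.3 CPM in untreated R150X macrophages. In WT it had 6.70, 5.38 and 5.28 CPM with OxLDL, against 19.8, 21.3 and 20.9 CPM without. Treated libraries lay well below untreated ones in both genotypes. The log2 fold change was -1.57 ± 0.13 in R150X (SE, edgeR adjusted p = 3.63e-09) and -1.83 ± 0.13 in WT macrophages (SE, edgeR adjusted p = 1.46e-10). The counts behind the treated values were 76 to 107 per library, the lowest of any member.

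Ier3, a regulator of cell survival, had 13.4, 11.7 and 12.8 CPM in OxLDL-treated R150X macrophages, against 30.7, 29.0 and 31.1 CPM in untreated R150X macrophages. In WT it had 17.0, 15.0 and 13.3 CPM with OxLDL, against 31.9, 31.6 and 32.6 CPM without. No treated library reached the level of an untreated one. The log2 fold change was -1.26 ± 0.09 in R150X (SE, edgeR adjusted p = 1.61e-10) and -1.08 ± 0.09 in WT macrophages (SE, edgeR adjusted p = 1.14e-09).

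Dusp1 fell in both genotypes, by less. Its log2 fold change was -0.17 ± 0.06 in R150X (SE, edgeR adjusted p = 0.0274) and -0.47 ± 0.07 in WT macrophages (SE, edgeR adjusted p = 3.93e-06), and the call in R150X was lost without OxLDL replicate 1 (adjusted p = 0.0605) or OxLDL replicate 2 (adjusted p = 0.107). Dusp6 rose in both, with a log2 fold change of 0.43 ± 0.05 in R150X (SE, edgeR adjusted p = 3.90e-07) and 0.61 ± 0.05 in WT macrophages (SE, edgeR adjusted p = 1.36e-09). The 3 phosphatases among the members therefore did not move as one: the ERK phosphatase rose and both nuclear ones fell.

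Among the AP-1 subunits, Fos rose with OxLDL, with a log2 fold change of 0.25 ± 0.05 in R150X (SE, edgeR adjusted p = 0.000194) and of 0.57 ± 0.05 in WT macrophages (SE, edgeR adjusted p = 2.32e-09). Jun had 137 to 149 CPM in OxLDL-treated and 112 to 125 CPM in untreated WT macrophages, a rise of 0.29 ± 0.06 (SE, edgeR adjusted p = 0.000467). In R150X macrophages Jun was not called, with a 95% interval of -0.07 to 0.18. Junb had 146 to 171 CPM in OxLDL-treated and 182 to 221 CPM in untreated R150X macrophages, and its log2 fold change was -0.32 ± 0.07 (SE, edgeR adjusted p = 0.000836). In WT macrophages Junb was not called, with an interval of -0.21 to 0.08, although it was with libraries scaled by size alone (-0.18, edgeR adjusted p = 0.0355).

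The remaining 3 members had uneven responses. Egr1 fell in WT macrophages, with a log2 fold change of -0.59 ± 0.07 (SE, edgeR adjusted p = 5.54e-07), and was not called in R150X macrophages, where the 95% interval was -0.05 to 0.22. Nr4a1 rose in R150X macrophages, to 11.4, 11.96 and 13.6 CPM with OxLDL, a log2 fold change of 0.61 ± 0.11 (SE, edgeR adjusted p = 0.000201). In WT macrophages it had 10.1, 10.3 and 9.73 CPM with OxLDL and was not called, with an interval of -0.30 to 0.18. Ier2 was not called in either genotype, with intervals of -0.17 to 0.13 in R150X and 0.01 to 0.33 in WT macrophages, and with adjusted p = 0.885 and 0.0754.

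**Figure D3:**
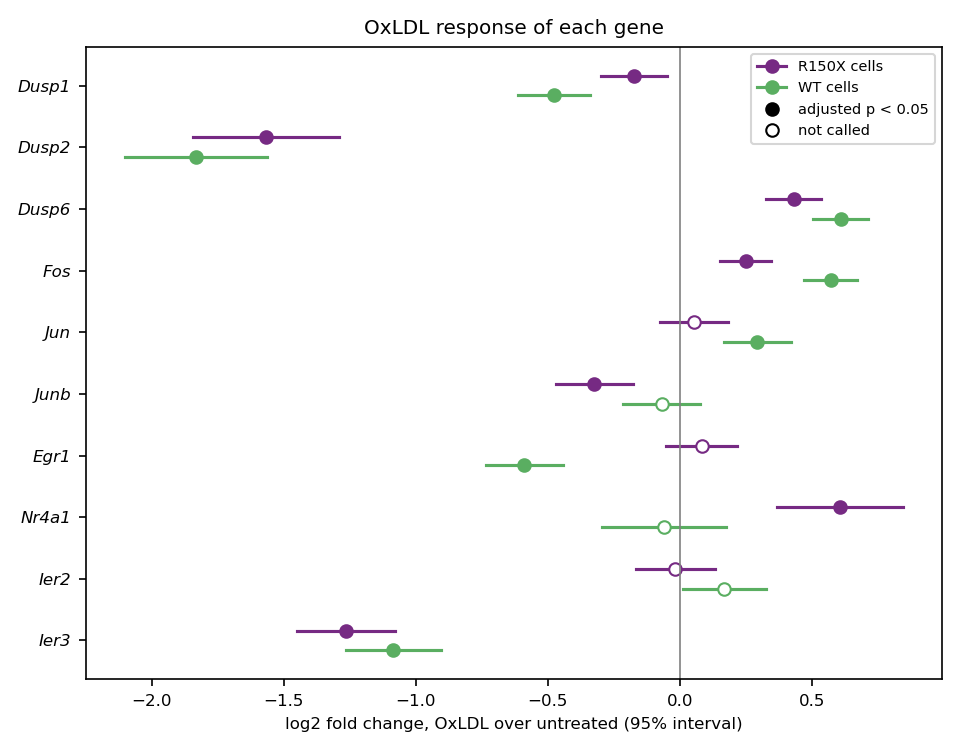
OxLDL response of each gene as log2 fold change, OxLDL over untreated (horizontal axis), in R150X (purple, upper) and WT (green, lower) macrophages. Points are estimates, lines 95% intervals, and filled points mark an adjusted p under 0.05. Dusp2 and Ier3 lie furthest left in both genotypes, and the points of Egr1 (0.08 and -0.59) and Nr4a1 (0.61 and -0.06) lie furthest apart.

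Whether the response to OxLDL depended on genotype was tested as the response in R150X minus the response in WT macrophages. It differed for 4 members, positive for Egr1, Nr4a1 and Dusp1 and negative for Fos, while 8.32% of all genes tested were called, 3.13% positive and 5.19% negative. The median difference was -0.18 over the members and -0.02 over all genes. For Egr1 the difference was 0.67 ± 0.10 (SE, edgeR adjusted p = 9.15e-05): its level in R150X was 50.1 ± 1.83 CPM with OxLDL and 47.2 ± 3.33 CPM without (SD, n = 3 each), while in WT it was 24.3 ± 0.610 CPM with OxLDL and 36.5 ± 2.01 CPM without. For Nr4a1 it was 0.67 ± 0.16 (SE, edgeR adjusted p = 0.0115), and the order of its levels turned round: R150X lay below WT without treatment, and the R150X libraries lay above the WT libraries under OxLDL, a difference that was not called.

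For Fos the difference was -0.32 ± 0.07 (SE, edgeR adjusted p = 0.00370). Its level with OxLDL was 145 ± 1.62 CPM in R150X and 118 ± 1.68 CPM in WT macrophages, and the genotypes lay further apart without it, at 122 ± 2.54 CPM in R150X and 79.2 ± 2.55 CPM in WT macrophages (SD, n = 3 each). For Dusp1 it was 0.30 ± 0.09 (SE, edgeR adjusted p = 0.0381), and this call was lost in 9 of the 12 fits that each left out 1 library. It was lost without R150X OxLDL replicate 1, 2 or 3, WT OxLDL replicate 1 or 2, untreated R150X replicate 2 or 3, or untreated WT replicate 1 or 3, with adjusted p between 0.0537 and 0.125. The other 6 members were not called, and the 95% intervals of Jun (-0.42 to -0.06), Junb (-0.46 to -0.05) and Dusp6 (-0.32 to -0.03) lay below 0 all the same.

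Within the dual-specificity phosphatases that act on MAP kinases, Dusp1 differed most in level between the genotypes. The 12 phosphatases measured, which include the atypical ones Dusp3 and Dusp14, summed to 188 ± 3.02 CPM per kilobase in OxLDL-treated R150X and 161 ± 2.38 in OxLDL-treated WT macrophages (SD, n = 3 each). Without treatment the sums were 158 ± 1.68 CPM per kilobase in R150X and 124 ± 3.04 in WT macrophages. Dusp1 made up 23.7% of the sum in OxLDL-treated R150X and 9.38% in OxLDL-treated WT macrophages, and 31.7% in untreated R150X and 17.0% in untreated WT macrophages. Dusp6 was 17.4% and 23.4% under OxLDL and 15.4% and 19.9% without, R150X before WT in each pair. Under OxLDL the share of Dusp2 was 1.42% in R150X and 1.79% in WT macrophages, against 5.03% and 8.34% without treatment.

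Among the AP-1 genes Junb had the highest mean in every group, just above Jund in OxLDL-treated R150X macrophages (68.5 and 68.0 CPM per kilobase). They summed to 253 ± 17.8 CPM per kilobase in OxLDL-treated R150X and 239 ± 14.1 in OxLDL-treated WT macrophages, and to 256 ± 24.1 in untreated R150X and 200.1 ± 9.02 in untreated WT macrophages (SD, n = 3 each). Junb made up 27.1% and 29.4% of the sum under OxLDL and 33.5% and 36.8% without, and Fos 24.4% and 20.9% under OxLDL and 20.3% and 16.9% without, R150X before WT in each pair. Jund, the constitutive Jun protein gene, was at 65.0 ± 12.6 CPM per kilobase in untreated R150X and 36.4 ± 1.77 in untreated WT macrophages, a log2 fold change of 0.83 ± 0.11 (SE, edgeR adjusted p = 1.01e-05). Under OxLDL the levels of Jund lay closer together, at 68.0 ± 9.29 in R150X and 56.1 ± 8.34 in WT macrophages (SD). Its test there and its fits without 1 library are not given here. Fosb was the lowest of the family in every group, at 0.198 to 0.273 CPM per kilobase.

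**Figure D4:**
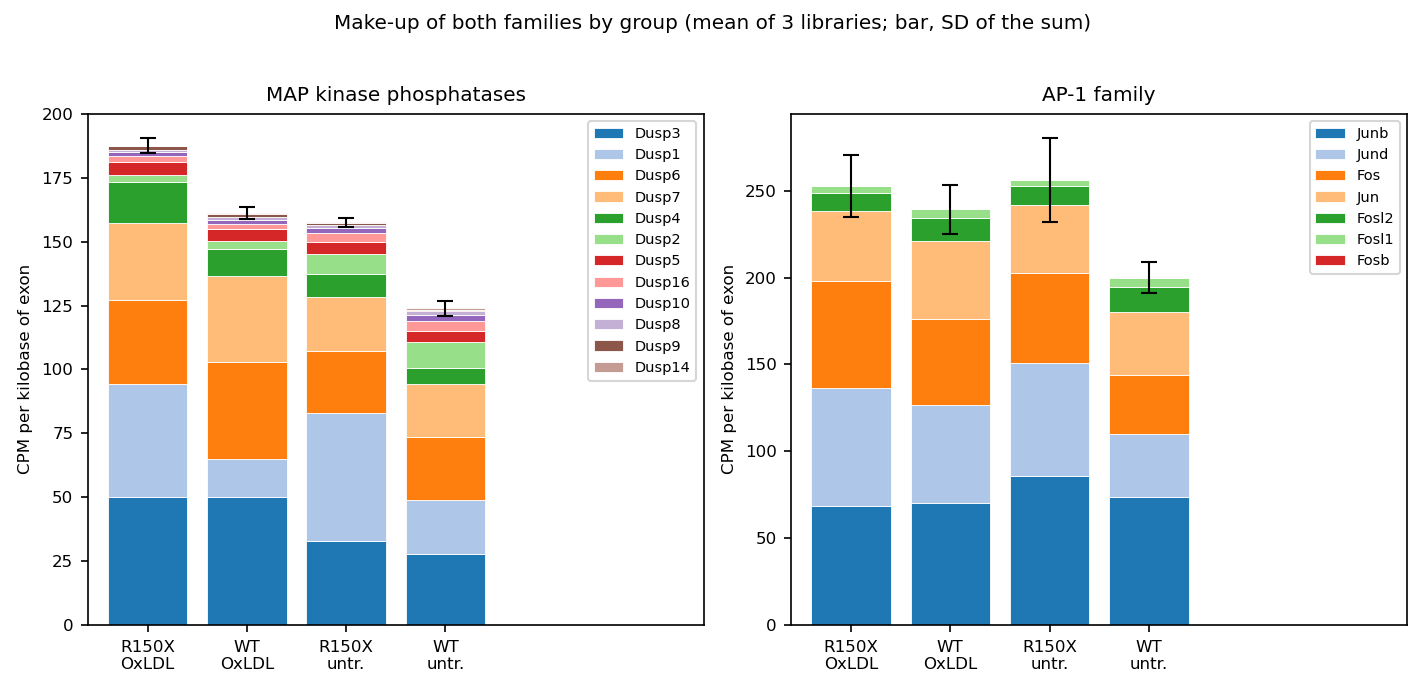
Mean level in CPM per kilobase of exon (vertical axes, from 0) of the phosphatases that act on MAP kinases (left) and of the AP-1 genes (right) in each group, stacked by gene. Whiskers are the SD of the sum over 3 libraries. The Dusp1 segment is 44.4 and 15.1 CPM per kilobase high in OxLDL-treated R150X and WT macrophages, and 50.05 and 21.0 in untreated R150X and WT macrophages.

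Over all genes tested, to set beside this and the next lists, 18.1% were higher and 14.8% lower between the untreated genotypes. Under OxLDL these shares were 6.10% and 6.92%. OxLDL raised 18.4% and lowered 20.6% in R150X, and raised 22.7% and lowered 23.1% in WT macrophages. The difference of the responses was positive for 3.13% and negative for 5.19%. Of 39 other immediate-early genes, 38 were tested and Nr4a3, with 63 counts in all libraries together, was not. In untreated macrophages 15 of the 38 were higher and 4 lower in R150X, with a median log2 fold change of 0.16. Plk2, a polo-like kinase, had 207 ± 1.92 CPM in R150X and 118 ± 1.73 CPM in WT macrophages (SD, n = 3 each), and Atf3 and Klf6, both transcription factors, rose by 0.56 and 0.55 on the log2 scale. In OxLDL-treated macrophages 7 were higher and 9 lower in R150X, with a median of -0.02, and 4 were higher without R150X replicate 2, WT replicate 1 or WT replicate 2. Plk2 and Klf6 stayed higher there, by 0.61 and 0.42 on the log2 scale, while Ccn2, a matricellular protein gene that stromal cells also express, fell by 0.51 on the log2 scale. OxLDL raised 8 and lowered 11 in R150X, and raised 15 and lowered 11 in WT macrophages. The OxLDL response of 12 of the 38 was smaller or more negative in R150X, that of 2 larger or less negative. For Egr2 the difference was -0.67 ± 0.07 (SE, edgeR adjusted p = 4.41e-06), opposite in sign to that of Egr1, and for Atf3 it was -0.53 ± 0.06 (SE, edgeR adjusted p = 1.61e-05). Levels of Egr2 were 128 ± 3.16 CPM in R150X and 142 ± 3.41 CPM in WT under OxLDL, and 105 ± 3.06 CPM in R150X and 73.2 ± 3.75 CPM in WT without.

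Another 9 MAP kinase phosphatases were tested. Dusp4, a nuclear ERK phosphatase, was higher in R150X in both conditions, at 43.3 ± 3.31 CPM in R150X and 29.5 ± 1.16 CPM in WT under OxLDL, and at 23.9 ± 1.33 CPM in R150X and 17.3 ± 1.56 CPM in WT without. It was the one called under OxLDL, and with Dusp3 one of 2 called without treatment, none being lower (1 lower without treatment with libraries scaled by size alone). OxLDL raised 4 of the 9 and lowered 3 in each genotype. Dusp3 rose by 0.61 on the log2 scale in R150X and 0.84 in WT macrophages, and Dusp16 fell by 0.70 in R150X and by 1.00 in WT macrophages. The number lowered was 1 without R150X OxLDL replicate 1 in R150X, and 1 without WT OxLDL replicate 1 in WT macrophages.

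Of 13 ERK feedback regulators and ETS targets, 5 were lower and 2 higher in untreated R150X, the 2 being 0 or 1 in every fit that left out 1 library of those groups. There was 1 higher with the RLE size factors of DESeq2 (relative log expression), with library size alone, with no filter on low counts, with the DESeq2 test, with the replicate block and with the compared groups fitted alone. Under OxLDL 3 were lower and 1 higher, which was 2 without R150X replicate 2 or 3 and with libraries scaled by size alone. Errfi1, an inhibitor of the EGF receptor family, had 60.7 ± 0.504 CPM in R150X and 86.2 ± 0.597 CPM in WT under OxLDL, and 71.7 ± 1.84 CPM in R150X and 111 ± 0.276 CPM in WT without. OxLDL lowered 5 and raised 3 in R150X, and lowered 6 and raised 2 in WT macrophages, the 2 being 0 or 1 without WT untreated replicates 1 or 3 or WT OxLDL replicates 2 or 3, and 0 with libraries scaled by size alone. Spry1, a Sprouty inhibitor of receptor tyrosine kinase signalling, fell with OxLDL, by 0.56 on the log2 scale in R150X and by 1.06 in WT macrophages, and was higher by 0.75 in R150X under OxLDL.

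Of 24 MAP kinase cascade genes, 7 were higher in untreated R150X and 1 was lower, in total near the 33.0% called over all genes. The number higher was 4 without WT replicate 1 or with the compared groups fitted alone. With libraries scaled by size alone 2 were higher and 2 lower, and 2 were lower without R150X replicate 1 or 3. Mapkapk2, the p38 target kinase that stabilises cytokine mRNAs, had 465 ± 39.7 CPM in untreated R150X and 321 ± 11.6 CPM in untreated WT macrophages. Under OxLDL it was not called between genotypes, at 248.6 ± 6.57 CPM in R150X and 233 ± 15.7 CPM in WT macrophages. There 1 gene, Ksr1, was higher and 1, Rps6ka1, lower, and Ksr1 was not called without R150X replicate 2 or WT replicate 1. OxLDL raised 7 and lowered 4 in R150X, and raised 5 and lowered 4 in WT macrophages (3 and 8 with libraries scaled by size alone).

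Of 16 transcription factors that act on immediate-early promoters, none was higher and 3 were lower in untreated R150X (8 with libraries scaled by size alone), at a median of -0.06. Elk3, an ETS partner of serum response factor, was lower in both conditions, at 50.2 ± 3.79 CPM in R150X and 62.2 ± 1.51 CPM in WT under OxLDL, and at 62.0 ± 0.90 CPM in R150X and 76.5 ± 1.24 CPM in WT without. Under OxLDL 4 were lower in R150X and 1 higher, but 1 or 2 were lower without R150X replicates 2 or 3 or WT replicates 1 or 2, or with libraries scaled by size alone, and the number higher was 0 or 2 in all fits without 1 library but that without R150X replicate 2. Nab1 and Nab2 encode co-repressors of the Egr proteins. OxLDL lowered Nab1, by 0.64 on the log2 scale in R150X and by 0.53 in WT macrophages, and raised Nab2 by 0.40 in WT. OxLDL raised 4 and lowered 2 of the list in each genotype, and 2 were raised in R150X without untreated or OxLDL replicate 1, with libraries scaled by size alone or with the compared groups fitted alone. In WT 2 were raised without any 1 untreated library, without OxLDL replicate 2, with RLE size factors or with DESeq2, and 2 were raised and 5 lowered with libraries scaled by size alone.

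Heat shock genes, which respond to handling and to protein damage, were tested as a further list of 12. In untreated R150X 5 were higher and 2 lower, with 1 or 2 higher without R150X replicate 1 or WT replicates 2 or 3, 1 with libraries scaled by size alone or the compared groups fitted alone, and 3 with no filter on low counts. Under OxLDL none was higher and 3 were lower, with 1 higher without R150X replicate 1 or WT replicate 1 or with the compared groups fitted alone. There were 2 higher with libraries scaled by size alone, with no filter on low counts or with the replicate block. OxLDL lowered 11 in R150X and 9 in WT macrophages and raised none. Hspa5, the chaperone of the endoplasmic reticulum, had 748 ± 18.6 CPM with OxLDL and 1071 ± 63.7 CPM without in R150X macrophages. Hspa1a and Hspa1b are near-identical copies whose reads may be split between them, so their separate values are uncertain.

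The genes whose levels followed those of single members most closely over the 12 libraries came from varied functions. Among 10296 genes, the highest Pearson r on log2(CPM + 1) was 0.986 for Dusp1 with Aldh1a2, 0.991 for Dusp2 with Ndrg1, 0.990 for Dusp6 with Emp1, 0.994 for Fos with G6pdx and 0.996 for Ier3 with Ube2c. It was 0.983 for Egr1 with Il1rn, 0.966 for Ier2 with Map4k1, 0.959 for Jun with Chst12, 0.952 for Junb with Ufc1 and 0.894 for Nr4a1 with Tbccd1. The libraries fall into 4 groups and these values mostly rank the group means, so they are given as a description.

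Some members share genomic sequence with neighbours, and no source used here gives the strand setting of the counting, which means that reads of overlapping genes cannot be told apart. Dusp1 (ENSMUSG00000024190, chr17:26505590-26562128, minus strand, GRCm38) overlaps exons of Ergic1 on the other strand by 11 bases. Ergic1 had 1793 to 2747 counts, and its log2 fold change, R150X over WT, was 0.24 under OxLDL and -0.08 without treatment, the second not called. Jun (ENSMUSG00000052684, chr4:95049034-95052222, minus strand) shares 232 exonic bases with Junos, an antisense gene of 29 to 99 counts that was lower in R150X, with log2 fold changes of -0.999 under OxLDL and -1.04 without. Junb (ENSMUSG00000052837, chr8:84974484-84978718, minus strand) shares 173 exonic bases with Prdx2, which had 1918 to 3447 counts and log2 fold changes of 0.06 under OxLDL, not called, and 0.32 without. OxLDL changed Prdx2 by -0.37 on the log2 scale in R150X and by -0.11 in WT macrophages, the second not called. The same values of Junb were -0.32 and -0.07, the second not called. The difference of the responses was -0.26 for both genes, called for Prdx2 alone. Prdx2 thus had the sign of Junb in each comparison but that of the genotypes under OxLDL, where neither was called. The part of Prdx2 in the Junb count was not tested.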

How the data were processed

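The deposited values are raw counts of reads per gene, from 12 libraries of total RNA, in one table for the series. Per the submitters' processing notes the tools were FastQC, HISAT2, featureCounts and DESeq2 and the build was GRCm38 (mm10). Versions and strand setting are not given in the sources used here. Identifiers were named from GENCODE, and 54495 of 54532 matched.

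Genes were filtered with filterByExpr by group and tested with edgeR 4.0.16 in R 4.3.3 (TMM scaling, quasi-likelihood test, Benjamini-Hochberg adjustment over 15338 genes). One model held 4 groups of 3 libraries, and the threshold was an adjusted p of 0.05. The fit was run on simulated counts with the same spread for all genes, and only the comparison of untreated genotypes was checked there. CPM used TMM-scaled library sizes, and levels per kilobase the union of exons. Intervals are at 95% and cover the spread between libraries.

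All 10 members were described. From each list, genes named were up to 3 of the called genes with the smallest adjusted p per comparison and the highest-level gene not called. Others named were chosen after their values were seen: Jund, Fosb and Dusp14 as parts of their families, and Nr4a3 as the one not tested. One gene that this rule selects is not reported here. Members and lists were chosen with earlier results of these data known. Alternatives were RLE size factors, library size alone, no filter, DESeq2 1.42.0, a replicate block, fits of the compared groups alone, leaving out each library, and the longest transcript as gene length.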

Additional observations from a re-analysis of the deposited data

Results flagged for a closer look

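The OxLDL response differed between genotypes for 4 members, while 8.32% of all genes tested were called. The test was that of the difference itself (edgeR's quasi-likelihood test, response in R150X minus response in WT). Of the genes called in the related lists, the 8 picked by the naming rule are given here. More were called: among the 38 other immediate-early genes tested, 12 were negative and 2 positive. Among the members the log2 difference was 0.67 for Egr1, 0.67 for Nr4a1, 0.30 for Dusp1 and -0.32 for Fos. Among other immediate-early genes it was -0.67 for Egr2, -0.58 for Sgk1, a survival kinase, and -0.53 for Atf3. In the MAP kinase cascade it was -0.44 for Mapkapk2 and -0.22 for Mapk3, which encodes ERK1. It was -0.23 for the phosphatase Dusp3, -0.31 for the Egr co-repressor Nab2 and 0.69 for Spry4, a Sprouty protein gene of 4.46 to 8.86 CPM in group means. The calls of Dusp1, Dusp3, Mapk3, Nab2 and Spry4 had adjusted p of 0.0381, 0.0460, 0.0375, 0.0267 and 0.0195, close to the threshold. The call of Dusp3 was lost with RLE size factors, with library size alone, with no filter on low counts and in every fit without 1 library but those without untreated R150X replicate 1 or 2. That of Nab2 was lost with library size alone and without untreated WT replicate 1 or 2, R150X OxLDL replicate 1 or 2, or WT OxLDL replicate 1 or 2. Of the 2 calls in the cascade, 1 was lost with library size alone, with no filter on low counts, and without untreated WT replicate 2 or 3 or any 1 OxLDL library. Among the ERK feedback regulators none was called without untreated WT replicate 1, R150X OxLDL replicate 2 or WT OxLDL replicate 2.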

How the results depend on the processing

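Of 650 log2 fold changes of members recomputed under other settings, 624 kept direction and side of the threshold, 19 lost a call, 3 gained one and 4 turned sign, none of the last called in the first place. Without 1 library each, Dusp2 (OxLDL, R150X over WT) lay between -0.22 and 0.00234, the second without WT OxLDL replicate 1. Junb in the same comparison lay between -0.099 and 0.0162, the second without R150X OxLDL replicate 1. Ier2 (OxLDL over untreated, R150X) lay between -0.060 and 0.0417, and was above 0 without untreated R150X replicate 1 and, at 0.00651, without R150X OxLDL replicate 2. Leaving out 1 library gave 3887 to 4835 genes called between untreated genotypes (5056 with all), 1423 to 1841 between OxLDL-treated ones (1996), 5033 to 5883 for OxLDL in R150X (5983), 6058 to 6271 for OxLDL in WT (7025) and 882 to 1397 for the difference of the responses (1276). Members lower in untreated R150X then numbered 0 to 2 and in OxLDL-treated R150X 1 to 2. With no filter on low counts 2 members, Fos and Junb, were called with a negative difference of the responses, against 1 called in the main fit. The causes were not tested. Scaling by library size alone moved the median of all genes by -0.11 for OxLDL in WT, and the share of calls that were higher from 55.0% to 36.1% between untreated genotypes, from 49.6% to 31.6% for OxLDL in WT and from 37.6% to 66.5% for the difference of the responses.

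Replicate numbers were not taken to pair the libraries, since the correlation of deviations of same-numbered libraries was -0.133 to 0.254. Between OxLDL-treated R150X and WT libraries it was 0.146, 0.0798 and 0.254 and each R150X library correlated best with its own number, a hint from the data and not from the design. With replicate number as a block, 5355, 2164, 6209, 7190 and 1491 genes were called in the 5 comparisons, in the order above. Members with few counts, Dusp2 and Nr4a1, had the widest intervals, and smaller changes were not detectable at this depth.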

Other observations

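Dusp1 lies on chromosome 17, and within 1 Mb of it 52 genes were tested, a window chosen after the values were seen. In OxLDL-treated macrophages 5 of them were higher and 3 lower in R150X, and in untreated macrophages 13 were higher and 5 lower (edgeR adjusted p under the threshold). Over all genes tested 13.0% were called between the OxLDL-treated genotypes, 6.10% higher and 6.92% lower. Between the untreated ones 33.0% were called, 18.1% higher and 14.8% lower. The total numbers called in the window thus lie near the background. A log2 fold change at least as high as that of Dusp1 was found for 1 gene of the window under OxLDL and for 2 without treatment. The part of these neighbours in the Dusp1 difference was not tested. Wfikkn1, a protease inhibitor gene, changed most in the window, with log2 fold changes, R150X over WT, of 2.53 ± 0.28 under OxLDL and 2.19 ± 0.27 without (SE, n = 3 each).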
